A study of Mus musculus with 24 samples.

Results

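The 9 mouse genes described here encode interleukins and growth factor cytokines: Il6, Lif, Il1b, Il1rn, Il15, Il33, Il34, Csf1 and Csf2. They were chosen by name, as the rows of 2 deposited count tables whose identifier is one of these symbols. The inner ear table, with 18440 genes in all, holds 8 of the 9, and Csf2 was not analysed here in that tissue. The organoid table, with 25190 genes in all, also holds 8, and Il1b was not analysed here in organoids.

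Bulk RNA sequencing was carried out on 24 libraries. Untreated wild-type male C57BL6/J mice gave inner ear tissue, which the sample titles call cochlea, at 3, 11 and 20 months of age (n = 4 mice per age). The other 12 libraries came from organoids, which are cell clusters grown in Matrigel from trypsinised cochlear epithelia of wild-type mice at postnatal day 1 to 2 (n = 3 per group). The 4 organoid groups were RBM25 knock down by lentivirus together with TNF-α, the knock down alone, TNF-α alone, and no treatment. All organoids were expanded with EGF, bFGF, IGF and CHIR99021, then kept in CHIR99021 and LY411575, and then in low EGF and bFGF. RBM25 is a protein that binds RNA and regulates splicing, and TNF-α is an inflammatory cytokine. The sample titles write RBM25 KO where the treatment label says knock down, and the text follows the treatment label. The dose and duration of TNF-α, and any virus given to the control organoids, were not given in the sources used here. No label states whether the organoid replicates came from separate cultures, so their p-values cover only the spread among these libraries, which may be technical.

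Cytokines of these families act on nearby cells through a few shared receptor types. IL-6 and LIF signal through gp130 (Il6st) and STAT3, IL-1β and IL-33 through receptors coupled to MyD88 and IRAK kinases, and IL-15 through the common gamma chain and STAT5. CSF1 and IL-34 are the ligands of CSF1R, the receptor on which macrophages depend for survival, and CSF2 acts on myeloid cells through its own receptor. IL-1 receptor antagonist, the product of Il1rn, occupies the IL-1 receptor without activating it. Macrophages reside in the cochlea, and IL-33 is stored in the nucleus of epithelial and glial cells and released on damage.

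The 250 bases before the annotated start are shown for 4 members: Csf1 and Lif, which TNF raised, Il33, which TNF lowered in organoids without the knockdown, and Il6, which stayed near 0. The sequences are RefSeq's on GRCm38.p6, given 5′ to 3′ on the strand of the gene, and capitals mark matches to 3 motifs searched on both strands. Csf1 lies on the minus strand and its stretch is chr3:107760470-107760719. Lif lies on the plus strand, with the stretch chr11:4257318-4257567. Il6 lies on the plus strand, with the stretch chr5:30012864-30013113. Il33 lies on the plus strand and has 2 annotated starts, and the stretch before the first of them, chr19:29924863-29925112, is given.
Csf1: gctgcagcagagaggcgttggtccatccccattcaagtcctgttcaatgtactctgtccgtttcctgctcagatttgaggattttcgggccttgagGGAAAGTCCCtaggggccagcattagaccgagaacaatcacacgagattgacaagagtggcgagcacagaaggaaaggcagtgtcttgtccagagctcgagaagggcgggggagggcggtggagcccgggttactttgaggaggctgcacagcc
Lif: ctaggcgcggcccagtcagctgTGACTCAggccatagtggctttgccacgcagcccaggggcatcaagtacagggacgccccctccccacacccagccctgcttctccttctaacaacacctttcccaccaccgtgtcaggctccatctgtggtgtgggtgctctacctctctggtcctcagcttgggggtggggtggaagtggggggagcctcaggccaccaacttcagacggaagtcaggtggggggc
Il6: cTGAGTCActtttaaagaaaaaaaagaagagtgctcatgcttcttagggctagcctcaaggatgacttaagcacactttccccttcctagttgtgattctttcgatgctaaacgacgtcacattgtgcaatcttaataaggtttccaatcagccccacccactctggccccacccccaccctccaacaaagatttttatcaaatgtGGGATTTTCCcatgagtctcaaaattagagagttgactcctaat
Il33: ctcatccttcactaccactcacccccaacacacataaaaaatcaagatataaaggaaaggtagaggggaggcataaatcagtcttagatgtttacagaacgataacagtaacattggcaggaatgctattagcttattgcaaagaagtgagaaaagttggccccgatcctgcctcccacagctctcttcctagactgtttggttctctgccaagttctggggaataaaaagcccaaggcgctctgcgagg

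The NF-kB type motif, GGG followed by any 3 bases and TTCC, occurred in 4.65% of 32851 promoter stretches of this length, TGANTCA, of the AP-1 type, in 6.75%, and TTGCNNCAA, of the C/EBP type, in 1.74%. In the Csf1 stretch the capitals mark the reverse complement of the NF-kB type motif, whose first base lies 154 bases before the start. In the Lif stretch they mark an AP-1 type match, 228 bases before the start. The Il6 stretch holds an NF-kB type match 44 bases before the start and an AP-1 type match 249 bases before it. The letters searched do not occur in the Il33 stretch. Among the other members, Il1rn has an NF-kB type match before the third of its 3 starts and an AP-1 type match before the first, and the stretches of Il1b and Csf2 hold no match. No C/EBP type match was found before any of the 7 members that matched an entry.

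Each table was fitted whole, and only members that passed a filter on low counts were tested. Library totals were 30599012 to 38451292 counts in the inner ear and 33802411 to 37048422 in organoids, and the spread between replicates, as edgeR's common biological coefficient of variation, was 19.8% and 8.04%. Of 10 hair cell markers, 9 reached a mean of 1 CPM in each inner ear group and at least 8 did so in each organoid group, and all 9 supporting cell markers did so in every group. Rbm25 read 94.6 ± 2.14 CPM in knockdown organoids and 145 ± 2.93 CPM in control organoids, and 111 ± 10.0 CPM in knockdown organoids with TNF against 162 ± 11.6 CPM with TNF alone (SD, n = 3 each). The knockdown therefore left 0.654 of the control level (log2 fold change -0.61 ± 0.06 SE, edgeR adjusted p = 1.01e-07). Tnf had 0 counts in the knockdown and control groups, which allows up to 3 counts per library, and 207 counts over the 3 knockdown plus TNF libraries and 132 over the 3 TNF libraries. In bulk tissue, fewer cells of a type and less RNA per cell cannot be told apart.

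Several members were too low to read, which is taken here as a mean under 10 counts in every group of an experiment. Il6 had 0 counts in all 4 mice at 3 months, 1, 0, 0 and 0 at 11 months, and 1, 4, 6 and 2 at 20 months. In organoids Il6 had 1, 0 and 1 counts with knockdown plus TNF, and 0 in each of the other 9 libraries. Csf2 had 1 count in 1 knockdown plus TNF library and 0 in the other 11 organoid libraries. Il1rn had 0 to 4 counts in every organoid library. A count of 0 allows up to 3 counts, or 0.0791 to 0.0968 CPM in the inner ear and 0.078 to 0.0885 CPM in organoids (CPM, counts scaled to library size with TMM factors). These limits cover counting error only. None of these genes passed the filter on low counts, so no test was made of them. Every mouse of 20 months had at least 1 read of Il6 and none of 3 months had any. The counts of 1 and 2 at 20 months lie within what a count of 0 allows, so no difference by age is read from this.

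The others fell into an order that differed between tissue and organoids. Per gene length, in the authors' FPKM, the inner ear at 3 months was led by Il34 at 8.50 ± 1.42, Csf1 at 3.83 ± 0.44 and Il33 at 2.78 ± 0.402 FPKM (SD, n = 4). Il15 at 0.782 ± 0.276 and Il1b at 0.700 ± 0.106 FPKM came next and did not differ beyond their spread, and Lif at 0.0584 and Il1rn at 0.0265 FPKM were last of those read. At 20 months Il34 at 8.94 ± 1.85 and Csf1 at 8.91 ± 2.27 FPKM stood level within their spread. Control organoids were led by Il33 at 24.5 ± 1.03 FPKM, far above Il15 at 1.89 ± 0.188 and Csf1 at 1.44 ± 0.0777 FPKM, with Il34 at 0.276 and Lif at 0.274 FPKM level with each other. In TNF organoids the order was led by Csf1 at 28.5 ± 2.03 FPKM, and Il33 came second at 15.2 ± 0.962 FPKM. Levels in tissue and organoids come from tables normalised separately, so no test was made between them.

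**Figure D1:**
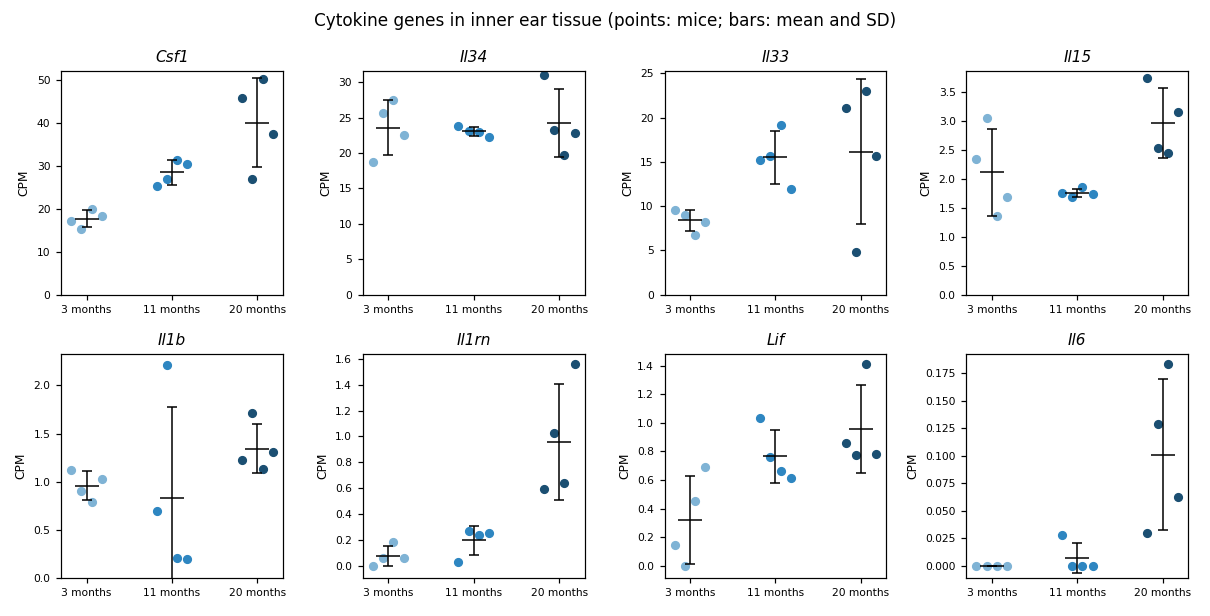
Levels of 8 cytokine genes in inner ear tissue at 3, 11 and 20 months, in CPM on an axis of its own for each gene, with 1 point per mouse and bars for the mean and SD (n = 4). Csf1 and Il1rn at 20 months lie above every 3-month mouse, Il34 overlaps between the ages, 1 of the 20-month mice is low in Il33, and Il6 stays under 0.2 CPM.

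Counted over members, 2 of the 7 tested in the inner ear passed at 20 against 3 months, Csf1 and Il1rn, both as higher, where 22.7% of all 15525 genes tested passed, 12% as higher and 10.7% as lower. Il1rn entered the fit only through the 20-month mice, in which it is high, so its calls say nothing further, and of the other 6 members 1 passed. At 11 months against 3 months 0 of 7 passed with edgeR, where 1.56% of all genes did (0.979% higher, 0.58% lower); 2 had an unadjusted p under 0.05, and DESeq2 called 1. At 20 against 11 months Il1rn was again called as higher, and no other member passed with edgeR, where 15.8% of all genes did (7.87% higher, 7.9% lower); 3 of the 7 had an unadjusted p under 0.05, and DESeq2 called 3. The comparisons between ages share mice, and those in organoids share libraries. In organoids, 3 of 5 passed with TNF against control, 2 as higher and 1 as lower, where 47.5% of all 15888 genes tested passed, 23.3% as higher and 24.2% as lower. With the knockdown against control 4 of 5 passed, 3 as higher and 1 as lower, beside 52.6% of all genes (24.4% higher, 28.2% lower). With knockdown plus TNF, 4 of 5 passed against the knockdown, all as higher, beside 44.8% of all genes (22.8% higher, 22% lower). Against TNF alone 5 of 5 passed, 4 as higher and 1 as lower, beside 52.3% (25.4% higher, 26.9% lower). The TNF effect differed with and without the knockdown for 2 of 5, 1 in each direction, beside 12.3% of all genes (7.54% positive, 4.81% negative).

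Csf1 rose at 20 against 3 months in the inner ear, and of the 5 members tested in organoids it had the largest TNF effect, both with the knockdown and without it. In the inner ear its counts were 580, 491, 663 and 641 at 3 months, 906, 893, 1192 and 1089 at 11 months, and 1542, 830, 1647 and 1197 at 20 months. The mice of 20 months do not overlap those of 3 months, nor do those of 11 months, whereas in CPM 1 mouse of 20 months falls among those of 11 months. Csf1 averaged 40.0 ± 10.4 CPM at 20 months and 17.7 ± 2.03 CPM at 3 months (SD, n = 4 each), a 2.26-fold rise (95% CI 1.77 to 2.90; log2 fold change 1.18 ± 0.17 SE, edgeR adjusted p = 0.00069). At 11 months it averaged 28.5 ± 2.89 CPM, 1.61-fold the level of 3 months, and did not pass (edgeR adjusted p = 0.0568; DESeq2 adjusted p = 0.00344). From 11 to 20 months the log2 fold change was 0.49 with an edgeR adjusted p of 0.0581, and 0.64 with an adjusted p of 0.0156 when replicate 2 of 20 months, the lowest of its group, was left out. The rise at 20 against 3 months was called without each library in turn. It was lost when a score of muscle and bone markers entered the fit (log2 fold change 0.83, edgeR adjusted p = 0.0737), a fit in which 831 genes in all passed instead of 3525. That score was 2.414 to 3.823 in the 3-month mice and 1.676 to 2.35 in the 20-month mice. As these do not overlap, the fit cannot tell age and score apart.

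Macrophage markers moved with Csf1 in the inner ear. Their summed level over 12 genes was 455 to 705 CPM at 20 months and 244 to 322 CPM at 3 months, and 10 of the 12 passed as higher and 1 as lower, with none at 0. Markers of muscle and bone moved the other way, at 51.6 to 92.1 CPM at 20 months against 94.5 to 260.1 CPM at 3 months. The part of either in the change of Csf1 was not tested.

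Il34, the second CSF1R ligand, did not follow. Its counts were 634, 830, 909 and 785 at 3 months, 853, 764, 871 and 798 at 11 months, and 1044, 720, 643 and 732 at 20 months, and the 3 ages overlap. It averaged 24.2 ± 4.80 CPM at 20 months and 23.6 ± 3.88 CPM at 3 months (SD, n = 4 each), with a fold of 1.02 (95% CI 0.834 to 1.26; edgeR adjusted p = 0.882), so the interval leaves out the 2.26-fold seen for Csf1. The ratio of Csf1 to Il34 in FPKM was 0.459 ± 0.0826 at 3 months, 0.747 ± 0.0912 at 11 months and 1.03 ± 0.364 at 20 months (SD, n = 4 each), and no test was made of it. The exons of Il34 (chr8:110741829-110805949, minus strand, GRCm38.p6) overlap Gm15894 and Gm15895 on the opposite strand, and the library kit does not mark strand, so reads in shared exons are uncertain.

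In organoids Csf1 was raised by TNF, by the knockdown and by both. Its counts were 8998, 8018 and 8725 with knockdown plus TNF, 709, 1056 and 1150 with the knockdown, 5420, 4741 and 4828 with TNF, and 238, 262 and 241 in controls. The 4 groups do not overlap, and the order from lowest to highest was control, knockdown, TNF and both. TNF organoids averaged 139 ± 9.38 CPM and controls 7.16 ± 0.375 CPM (SD, n = 3 each), a 19.4-fold difference (95% CI 14.0 to 26.8; log2 fold change 4.28 ± 0.21 SE, edgeR adjusted p = 1.68e-07). Knockdown organoids averaged 27.3 ± 7.96 CPM, 3.79-fold the control level (95% CI 2.71 to 5.31; edgeR adjusted p = 5.27e-05). Knockdown plus TNF organoids reached 231 ± 12.5 CPM, 8.49-fold the knockdown level (95% CI 6.39 to 11.3; edgeR adjusted p = 7.29e-07) and 1.66-fold the TNF level (95% CI 1.29 to 2.15; edgeR adjusted p = 0.00433).

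The TNF response of Csf1 was smaller as a fold with the knockdown than without it, and larger as a difference in level. On the log2 scale the 2 TNF effects differed by -1.19 ± 0.27 SE (edgeR adjusted p = 0.0225). That call was lost without control replicate 1 (adjusted p = 0.0619), control replicate 3 (0.0555) or knockdown replicate 2 (0.0545). In mean level, 231 CPM with both treatments stood against 27.3 CPM with the knockdown, a wider gap than the 132 CPM between TNF and control organoids. The order of the 2 responses therefore depends on the scale.

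Il34 in organoids was low and behaved otherwise. Its counts were 116, 125 and 117 with knockdown plus TNF, 31, 62 and 68 with the knockdown, 48, 14 and 33 with TNF, and 38, 23 and 20 in controls. The knockdown plus TNF libraries lie above all others, while the other 3 groups overlap. TNF alone gave a fold of 1.12 (95% CI 0.618 to 2.04; edgeR adjusted p = 0.763), against the 19.4-fold for Csf1. In knockdown organoids TNF raised it 2.13-fold (95% CI 1.27 to 3.58; edgeR adjusted p = 0.0188), which did not pass without knockdown replicate 1 (log2 fold change 0.78, adjusted p = 0.0742). Knockdown against control gave 1.92-fold (edgeR adjusted p = 0.0522), short of the threshold, though it passed with DESeq2 (adjusted p = 0.0283), without control replicate 1 (0.0308) and without knockdown replicate 1 (0.00797). Knockdown plus TNF stood 3.65-fold above TNF (95% CI 2.11 to 6.29; edgeR adjusted p = 0.000469). The ratio of Csf1 to Il34 in FPKM was 41.1 ± 4.02 with knockdown plus TNF, 10.8 ± 1.94 with the knockdown, 114 ± 69.4 with TNF and 5.64 ± 1.81 in controls (SD, n = 3 each).

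**Figure D2:**
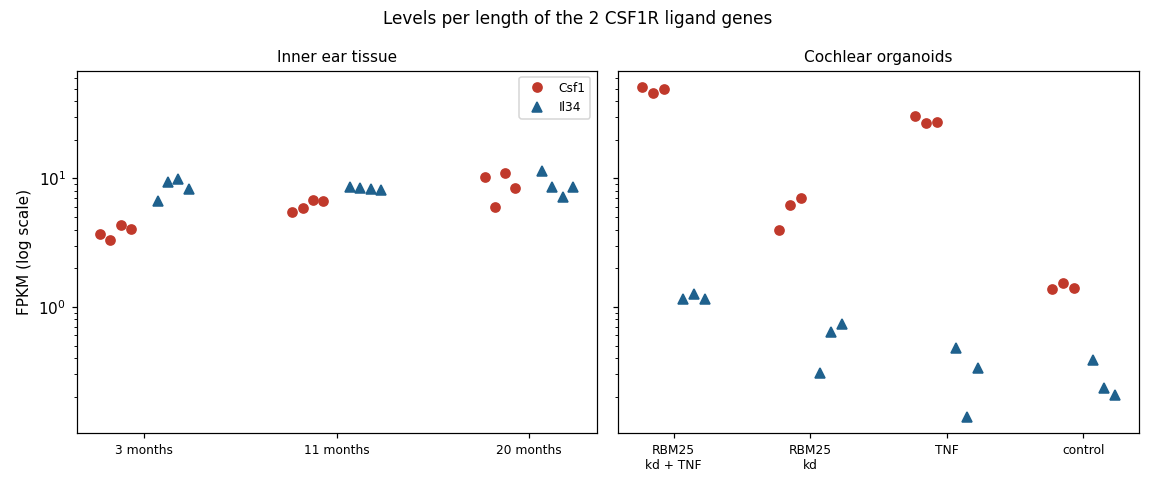
FPKM of Csf1 (circles) and Il34 (triangles) in each library of the 3 ages and the 4 organoid groups, on a log axis, with 1 symbol per library. Csf1 lies below Il34 in every 3-month mouse and above it in every organoid library, where TNF raises Csf1 with and without the knockdown.

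Csf1r, the receptor of both, was read at 86.7 ± 22.3 CPM at 20 months and 39.2 ± 5.72 CPM at 3 months (SD, n = 4 each), 2.21-fold higher (edgeR adjusted p = 0.0013). In organoids it had 0 or 1 count in every library. Of the 12 macrophage markers 6 are in the organoid table, and of these Mertk and Cd68, which other cell types also express, and Aif1 reached a mean of 1 CPM in some group. Aif1, a calcium-binding protein of macrophages, had 8.61 CPM with knockdown plus TNF, 0.0626 CPM with the knockdown, 2.01 CPM with TNF and 0 in controls. C1qb, Mrc1 and Lyz2 stayed at or under 0.401 CPM in every organoid library.

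Lif, the only gp130 ligand among the members that could be read, followed Csf1 in organoids at a lower level. Its counts were 313, 263 and 364 with knockdown plus TNF, 146, 141 and 129 with the knockdown, 228, 184 and 161 with TNF, and 50, 67 and 43 in controls. No 2 groups overlap in CPM. TNF organoids averaged 5.30 ± 0.918 CPM and controls 1.54 ± 0.348 CPM (SD, n = 3 each), a 3.43-fold rise (95% CI 2.61 to 4.51; edgeR adjusted p = 3.19e-07). The knockdown stood at 3.84 ± 0.0738 CPM, 2.48-fold the controls (edgeR adjusted p = 1.25e-05). Knockdown plus TNF reached 8.43 ± 1.35 CPM, 2.19-fold the knockdown (edgeR adjusted p = 2.38e-05) and 1.59-fold TNF alone (edgeR adjusted p = 0.00245). The 2 TNF effects did not pass as different (log2 difference -0.64 ± 0.25 SE, edgeR adjusted p = 0.106), and as differences in level they were 4.59 CPM with the knockdown and 3.76 CPM without it.

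In the inner ear Lif was close to its detection limit at 3 months. The counts were 5, 0, 15 and 24 at 3 months, 37, 25, 25 and 22 at 11 months, and 29, 24, 46 and 25 at 20 months. In CPM the mice of 20 months lie above those of 3 months, and those of 11 months overlap both. Lif averaged 0.955 ± 0.303 CPM at 20 months and 0.322 ± 0.308 CPM at 3 months (SD, n = 4 each), and the 2.93-fold difference did not pass (95% CI 1.02 to 8.44; edgeR adjusted p = 0.132).

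The IL-1 family members were read with unequal precision. Il1b, the inflammatory ligand, had 38, 29, 26 and 36 counts at 3 months, 25, 73, 8 and 7 at 11 months, and 41, 53, 37 and 42 at 20 months. It averaged 1.34 ± 0.256 CPM at 20 months and 0.959 ± 0.147 CPM at 3 months (SD, n = 4 each), a fold of 1.40 that did not pass (95% CI 0.557 to 3.50; edgeR adjusted p = 0.606), although the mice of these ages do not overlap in CPM. The 11-month mice ranged from 0.195 to 2.21 CPM. Without replicate 2 of 11 months, the highest, Il1b passed at 20 against 11 months (log2 fold change 1.86, edgeR adjusted p = 0.0433), where with it the value was 0.70 (adjusted p = 0.458). Il1b (chr2:129364569-129371164, minus strand) shares exon bases with Il1bos on the opposite strand, so its reads are uncertain too. Neutrophil and marrow markers, which come from cells rich in Il1b, summed to 24.8 to 185 CPM at 20 months, 12.2 to 31.6 CPM at 11 months and 13.3 to 94.1 CPM at 3 months, and their part was not tested.

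Il1rn, the antagonist, had 0, 2, 6 and 2 counts at 3 months, 1, 9, 9 and 9 at 11 months, and 20, 32, 21 and 50 at 20 months. Every mouse of 20 months lies above every younger mouse. It averaged 0.956 ± 0.447 CPM at 20 months, 0.197 ± 0.114 CPM at 11 months and 0.0752 ± 0.0762 CPM at 3 months (SD, n = 4 each). The gene passed the filter on low counts only through the 20-month mice, so these levels are given as a description, with no fold and no test. The FPKM ratio of Il1rn to Il1b averaged 0.0429 ± 0.048 at 3 months, 0.311 ± 0.316 at 11 months and 0.344 ± 0.156 at 20 months (SD, n = 4 each), so the 11-month ratios span the other ages.

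Il33, an alarmin, was the most abundant member of control organoids. Its counts were 5625, 5684 and 5298 with knockdown plus TNF, 4968, 4342 and 4327 with the knockdown, 1537, 1706 and 1712 with TNF, and 2686, 2485 and 2662 in controls. The 4 groups do not overlap. TNF organoids averaged 45.9 ± 3.02 CPM and controls 75.7 ± 3.49 CPM (SD, n = 3 each), so TNF lowered Il33 to 0.606 of the control level (95% CI 0.559 to 0.658; log2 fold change -0.72 ± 0.06 SE, edgeR adjusted p = 4.65e-09). The knockdown raised it to 126 ± 4.37 CPM, 1.66-fold the controls (95% CI 1.54 to 1.80; edgeR adjusted p = 2.00e-09).

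With the knockdown, the direction of the TNF response of Il33 was reversed. Knockdown plus TNF organoids averaged 149 ± 5.63 CPM and knockdown organoids 126 ± 4.37 CPM (SD, n = 3 each), a 1.18-fold rise (95% CI 1.09 to 1.28; edgeR adjusted p = 0.00107). The 2 TNF effects differed by 0.96 ± 0.08 SE on the log2 scale (edgeR adjusted p = 2.41e-07), and this call held in every one of the 17 alternatives, with values of 0.90 to 1.00. Knockdown plus TNF stood 3.25-fold above TNF alone (95% CI 2.99 to 3.52; edgeR adjusted p = 5.93e-14). Il1rl1, the IL-33 receptor, has no row in the organoid table and had 0 to 25 counts in inner ear libraries, where its fold at 20 against 3 months was 1.17 (95% CI 0.284 to 4.80).

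**Figure D3:**
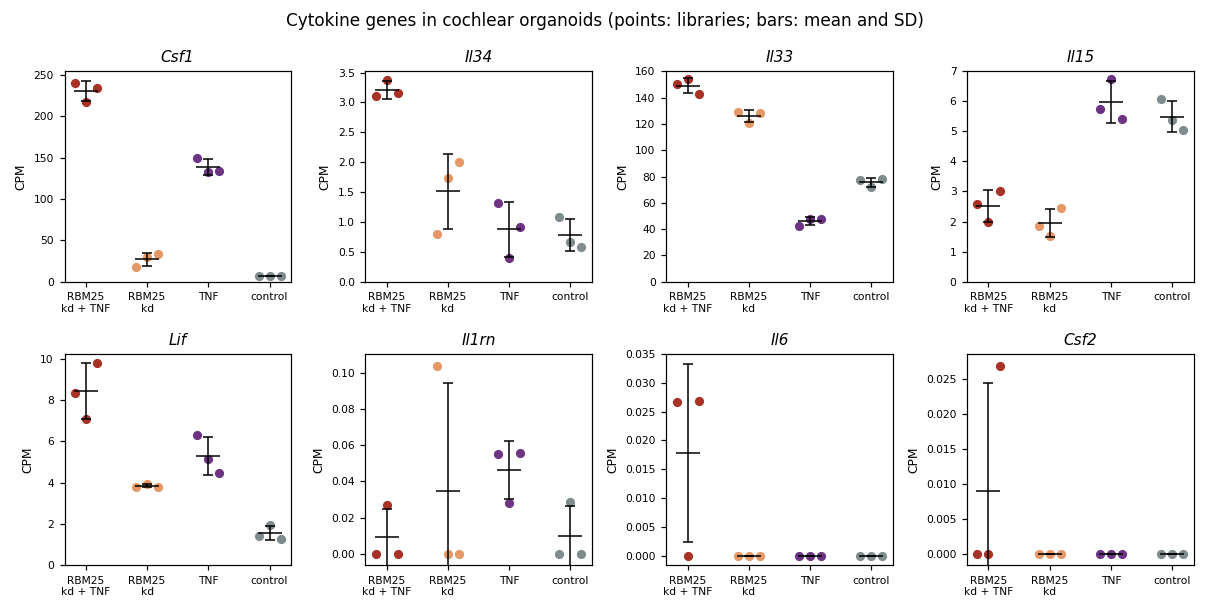
Levels of 8 cytokine genes in organoids with RBM25 knockdown plus TNF, knockdown, TNF and no treatment, in CPM on an axis of its own for each gene, with 1 point per library and bars for the mean and SD (n = 3). Csf1 and Lif are lowest in controls and highest with both treatments, Il33 is lowest with TNF alone, Il15 is low in both knockdown groups, and Il1rn, Il6 and Csf2 stay within a few counts of 0.

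In the inner ear Il33 had 323, 291, 222 and 288 counts at 3 months, 547, 518, 727 and 428 at 11 months, and 710, 148, 751 and 502 at 20 months. All mice of 11 months lie above those of 3 months, whereas 1 mouse of 20 months, replicate 2, lies below them all. The means were 16.1 ± 8.16 CPM at 20 months and 8.38 ± 1.23 CPM at 3 months (SD, n = 4 each), and the 1.92-fold difference did not pass (95% CI 1.10 to 3.36; edgeR adjusted p = 0.0876). It passed without replicate 2 of 20 months (log2 fold change 1.25, adjusted p = 0.000641) and with DESeq2 (adjusted p = 0.0236). At 11 months the mean was 15.5 ± 2.96 CPM, 1.85-fold the level of 3 months, and did not pass (edgeR adjusted p = 0.232), though it passed in a fit of only the groups compared (log2 fold change 0.89, adjusted p = 0.00936).

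A score of 10 markers of central nervous tissue moved with Il33. It was 4.75, 3.39, 5.36 and 4.76 in the 20-month mice, in the order of the counts above, and 4.39, 3.39, 4.03 and 3.47 in the 3-month mice, while the 11-month mice lay between 4.88 and 5.07. The low 20-month mouse in Il33 is the one with the low score. With the score in the fit, the log2 fold change of Il33 was 0.06 at 20 against 3 months (edgeR adjusted p = 0.913) and -0.19 at 11 against 3 months (adjusted p = 0.973). That of Csf1 at 20 against 3 months was 0.86 in this fit and passed (adjusted p = 0.00198). Every 11-month mouse had a higher score than every 3-month mouse, so at these ages the fit cannot tell age and score apart. The same markers summed to 88.6 to 256 CPM in organoids grown from cochlear epithelia, so the score is not particular to central nervous tissue. Beyond this fit, the part of such tissue in the change of Il33 was not tested.

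**Figure D4:**
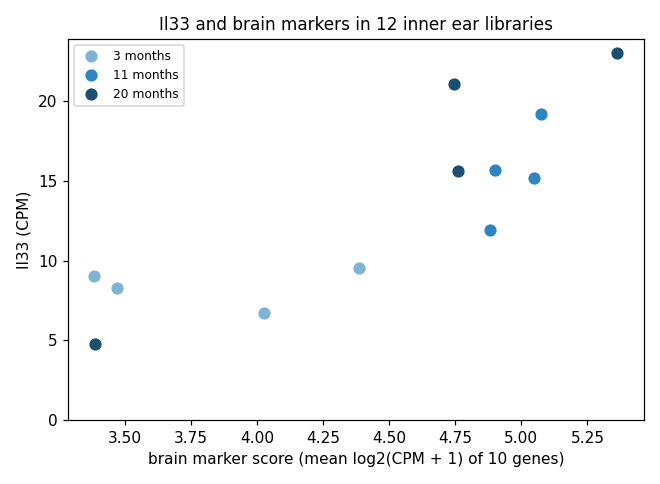
Il33 in CPM against the brain marker score, the mean log2(CPM + 1) of 10 genes, with 1 point for each of the 12 inner ear libraries and shades for the 3 ages. The 20-month mouse with 4.77 CPM of Il33 has a score of 3.39, among the lowest of all, and the libraries above 10 CPM all have scores over 4.7.

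Il15, which acts on natural killer and T cells, was the member that fell with the knockdown. Its counts were 97, 73 and 112 with knockdown plus TNF, 71, 55 and 83 with the knockdown, 208, 241 and 194 with TNF, and 211, 186 and 171 in controls. Neither knockdown group overlaps either group without it, and TNF and control libraries overlap. It averaged 1.94 ± 0.465 CPM with the knockdown and 5.48 ± 0.518 CPM in controls (SD, n = 3 each), 2.83-fold lower (log2 fold change -1.5 ± 0.2 SE, edgeR adjusted p = 3.41e-06). With TNF present the knockdown gave 2.53 ± 0.525 CPM against 5.96 ± 0.697 CPM with TNF alone, 2.35-fold lower (edgeR adjusted p = 2.46e-05). TNF itself gave a fold of 1.09 without the knockdown (95% CI 0.835 to 1.41; edgeR adjusted p = 0.62) and of 1.30 with it (95% CI 0.972 to 1.75; edgeR adjusted p = 0.133). The second passed without knockdown replicate 3 (log2 fold change 0.58, adjusted p = 0.0373) or knockdown plus TNF replicate 2 (0.55, adjusted p = 0.041).

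In the inner ear Il15 averaged 2.96 ± 0.605 CPM at 20 months and 2.11 ± 0.742 CPM at 3 months (SD, n = 4 each), and the ages overlap (fold 1.41, 95% CI 0.94 to 2.10; edgeR adjusted p = 0.207). At 11 months it was 1.76 ± 0.065 CPM, below every 20-month mouse, and that difference did not pass with edgeR (log2 fold change 0.75, adjusted p = 0.074) but did with DESeq2 (adjusted p = 0.0407). Il2rb and Il2rg, which form the signalling receptor of IL-15, rose at 20 against 3 months, by log2 1.93 and 2.00 (edgeR adjusted p = 0.00561 and 0.00323). Markers of T and natural killer cells, which carry both chains, summed to 6.22 to 11.7 CPM at 20 months against 1.41 to 2.39 CPM at 3 months, and their part was not tested.

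**Figure D5:**
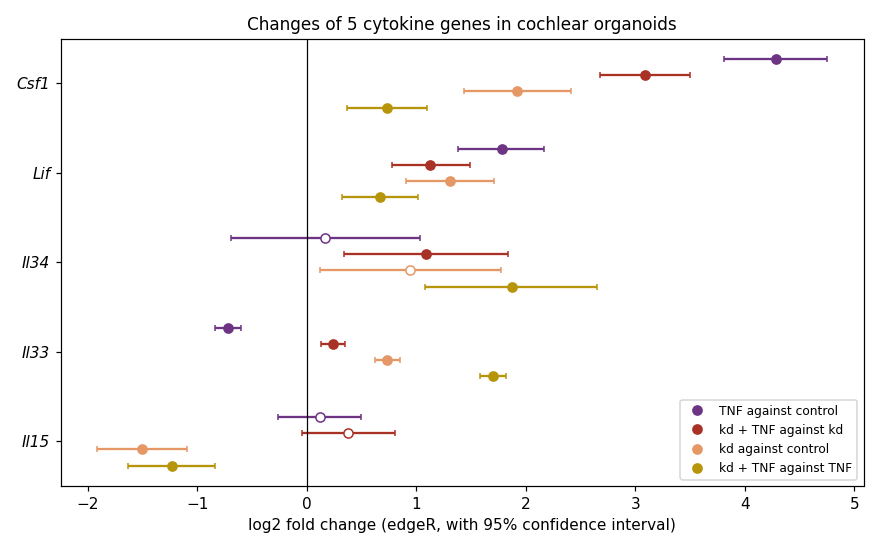
Log2 fold changes of 5 members in organoids from edgeR's fit, with 95% confidence intervals, filled where the adjusted p passed 0.05 and open where it did not. TNF lowers Il33 without the knockdown and raises it with it, Csf1 has the largest TNF effect, and the knockdown lowers Il15 while it raises Csf1, Lif and Il33.

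The receptors and signalling genes of these cytokines were counted from 5 lists. Of 15 receptor genes tested in the inner ear, 8 rose at 20 against 3 months and 0 fell, where 12% of all genes rose and 10.7% fell. Their median log2 fold change was 0.55 beside 0.01 over all genes. Among them were Csf1r (1.14), Csf2rb, the shared beta chain of the CSF2 receptor (1.5, edgeR adjusted p = 0.00161), Il6st (0.55, adjusted p = 0.00276) and Il2rg. Il1r1, the signalling IL-1 receptor, also rose (1.29, adjusted p = 0.0273), and Il6ra and Lifr did not pass (0.17 and -0.20). Of 12 signal transducers, 3 rose and 0 fell: Irak2 (0.62, edgeR adjusted p = 0.00142), Stat3 (0.60, adjusted p = 0.00261) and Jak3 (0.65, adjusted p = 0.0226).

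Genes that mature or restrain these cytokines rose in 8 of 14 cases at 20 against 3 months and fell in 0, with a median of 0.71. They included Il18bp, a decoy for IL-18 (1.05, edgeR adjusted p = 0.000806), Irak3, an inhibitor of IRAK signalling (0.85, adjusted p = 0.000882), Casp1, which cleaves the IL-1β precursor (1.88, adjusted p = 0.00174), and Pycard, its adaptor (0.92, adjusted p = 0.00289). Of 13 targets of gp130 and STAT3, 9 rose and 1, Pim1, fell, with a median of 1.31; Socs3 stands in this list and the last. Those with the smallest p were Osmr (1.74, edgeR adjusted p = 0.000109), Cebpd (1.75, adjusted p = 0.000119), Cebpb (1.24, adjusted p = 0.000245) and Bcl3 (1.35, adjusted p = 0.00205). Without replicate 1 of 3 months 5 rose and 1 fell. Many of these genes also answer to other cytokines. Of 38 other cytokine genes, 28 are in the inner ear table and 12 could be tested: Kitl, Il18 and Flt3l rose, and Il16 fell (log2 fold change -0.92, edgeR adjusted p = 0.000157). Osm, at 0.556 CPM at 20 months and 0.0882 CPM at 3 months, was also called as higher. It passed the filter on low counts only through the 20-month mice, in which it is high, so its call says nothing further. With the muscle and bone score in the fit, the numbers that passed were 0 receptors, 1 transducer, 3 of the maturation and restraint genes, 3 targets and 1 other cytokine. These ages do not overlap in that score, so the fit cannot tell age and score apart.

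In organoids with TNF against control, 11 of 13 gp130 and STAT3 targets rose and 1 fell, with a median log2 fold change of 2.33 beside -0.02 over all genes. Saa3 and Serpina3n, both counted among the 11, averaged 0.00956 and 0.0965 CPM in controls. They passed the filter on low counts only through the groups given TNF, in which they are high, so their calls say nothing further. Of all genes 23.3% rose and 24.2% fell in this comparison. Bcl3 (3.60, edgeR adjusted p = 8.41e-11), Il4ra (0.89, adjusted p = 5.29e-10) and Pim1 (2.33, adjusted p = 7.36e-09) had the smallest p among the targets that rose, whereas Socs3, the feedback inhibitor of gp130 signalling, fell (-1.35, adjusted p = 2.91e-05). Here too many of the targets also answer to other cytokines, and gp130 signalling itself was not tested. Of the 8 receptor genes tested, 2 rose, Il6st and Ptprz1, and 3 fell, Lifr, Csf2ra and Il15ra, beside 47.5% of all genes called in either direction. Il6st averaged 768 ± 33.9 CPM with TNF and 491 ± 11.5 CPM in controls (log2 fold change 0.65, edgeR adjusted p = 2.07e-08), and Lifr, its partner for LIF, averaged 50.7 ± 0.153 CPM with TNF and 71.6 ± 2.81 CPM in controls (-0.50, adjusted p = 6.36e-07; SD, n = 3 each). Of 12 transducers 6 rose, Irak2 (1.02) and Stat3 (0.59) among them, and 2 fell, Stat5b and Irak1. Of 12 maturation and restraint genes 5 rose and 3 fell: Tnfaip3, a brake on NF-kB, rose by log2 4.94 (edgeR adjusted p = 3.67e-14) and Zfp36, which destabilises cytokine transcripts, had a change of -0.57 (adjusted p = 5.17e-07). Casp4, 1 of the 5, averaged 0.0194 CPM in controls and likewise passed the filter only through the groups given TNF. Of 9 other cytokines tested 0 rose and 2 fell, Ctf1 (-0.34) and Kitl (-1.02).

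With the knockdown against control, 0 of 12 signal transducers rose and 9 fell, where 24.4% of all genes rose and 28.2% fell. Their median log2 fold change was -0.30 beside -0.03 over all genes. Jak3 averaged 3.15 ± 0.223 CPM with the knockdown and 9.55 ± 0.558 CPM in controls (SD, n = 3 each; log2 fold change -1.60, edgeR adjusted p = 2.32e-09). Stat5b (-0.64, edgeR adjusted p = 4.68e-09), Stat5a (-0.90, adjusted p = 5.49e-08) and Jak1 (-0.41, adjusted p = 6.97e-08), kinases and transcription factors downstream of IL-15 among other cytokines, fell as well. Il15ra, the chain that presents IL-15, fell with Il15 itself (-0.87, edgeR adjusted p = 1.30e-05). The signalling chains of the IL-15 receptor were low in organoids. Il2rb had 0 to 3 counts and Il2rg 0 to 36 per library, and neither was tested there. In 3 other lists the share called was near the 52.6% of all genes. Of 8 receptors 2 rose, Lifr and Ptprz1, and 2 fell, Csf2ra and Il15ra. Of 13 gp130 targets 4 rose and 3 fell, and of 12 maturation and restraint genes 5 rose and 2 fell, with Cish, a target and inhibitor of STAT5, higher (1.07, adjusted p = 2.43e-06). Serpina3n, among the targets that fell, was near 0 in both groups, at 0 CPM with the knockdown and 0.0965 CPM in controls. Of 9 other cytokines 0 rose and 3 fell, Il18, Flt3l and Ctf1.

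With knockdown plus TNF against the knockdown, 12 of 13 gp130 and STAT3 targets rose and Socs3 fell (-0.72, edgeR adjusted p = 0.00248), where 22.8% of all genes rose and 22% fell. Of the transducers 8 rose and 2 fell, of the receptors 3 rose (Il6st, Il1r1 and Ptprz1) and 1 fell (Lifr), and of the maturation and restraint genes 9 rose and 1 fell. Saa3 and Serpina3n among the targets, and Casp4 among the maturation and restraint genes, again entered only through the groups given TNF. Il1r1 was among the receptors that rose, at 3.36 ± 0.494 CPM with both and 1.00 ± 0.158 CPM with the knockdown (SD, n = 3 each; edgeR adjusted p = 0.000203). Of the other cytokines 2 rose and 1 fell. Against TNF alone, knockdown plus TNF organoids had 0 transducers higher and 9 lower, 4 receptors higher and 2 lower, 8 maturation and restraint genes higher and 1 lower, and 4 targets higher and 1 lower, beside 25.4% of all genes higher and 26.9% lower. Of the other cytokines 3 were higher and 2 lower, and without TNF replicate 3 or knockdown plus TNF replicate 1 the higher ones numbered 1 and 0. Il16, counted among the 3, averaged 0.699 CPM with knockdown plus TNF and 0.13 CPM with TNF alone. It passed the filter on low counts only through the knockdown groups, in which it is high, so its call says nothing further.

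Cell markers differed between the organoid groups as well. Supporting cell markers summed to 3910.3 to 4098 CPM with knockdown plus TNF, 7083 to 7252 with the knockdown, 5017 to 5726 with TNF and 12067 to 12452 in controls. Fibroblast markers summed to 531 to 826, 696 to 841, 1019 to 1209 and 1429.5 to 1461 CPM in the same groups. Both sums were lower with the knockdown than in controls. In the fibroblast list, however, 1 of 6 genes was called higher and 2 lower, with a median log2 fold change of 0.85. Other sums were higher with the knockdown, as Csf1, Lif and Il33 were. Hair cell markers summed to 397 to 483 CPM with knockdown plus TNF, 533 to 759.9 with the knockdown, 301 to 342 with TNF and 354 to 367 in controls. In the same order of groups, Schwann cell markers summed to 117 to 128, 128 to 139.7, 66.4 to 70.8 and 74.7 to 81.2 CPM. Brain markers summed to 176 to 218 CPM with knockdown plus TNF, 245 to 256 with the knockdown, 91.6 to 113 with TNF and 88.6 to 95.9 in controls. Neuron markers summed to 41.9 to 54.7, 53 to 76.4, 19 to 23.1 and 18.4 to 19.4 CPM in these groups, and mucosal markers to 41.3 to 62.3, 83.5 to 92.5, 15.9 to 23.2 and 16.8 to 17.2 CPM. The sum of neutrophil and marrow markers, of which 5 of 12 are in the organoid table, followed the order of Csf1 instead. It was 21 to 23.2 CPM with knockdown plus TNF and 1.35 to 1.98 with the knockdown. With TNF it was 6.71 to 8.94 CPM, and in controls 0.746 to 1.06 CPM. At most 1 of the genes reached a mean of 1 CPM in any group. Of the 2 tested, 1 was called higher and 1 lower with knockdown plus TNF against the knockdown. Muscle and bone markers were at 0.853 to 1.90 CPM in the knockdown, TNF and control libraries and at 1.86 to 103 CPM with knockdown plus TNF, where replicates 1 and 2 carried them. Their part in the changes of the cytokine genes was not tested.

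Across the 12 inner ear libraries the genes most like Csf1 in log2(CPM + 1) were Diaph2, Cd83 and Dnajb4 (Pearson r of 0.981, 0.972 and 0.968). For Il33 Ranbp3l and Klhl4 came first (0.970 and 0.968), and the genes most like Il34 were Ucp2, Krt87 and Slc2a1 (0.891, 0.867 and 0.865). In the 12 organoid libraries Csf1 was most like Npm1, C1s1 and Sema3b (0.997, 0.995 and 0.993), Lif like Etf1, Itga6 and Sema3e (0.983, 0.979 and 0.977), and Il33 like Tril, Fzd7 and Sp3os (0.988, 0.983 and 0.983). Il15 was most like Tgif1, Snapc5 and Cd2bp2 (0.977, 0.973 and 0.973). Each r describes libraries that share their group and sequencing depth, and the genes were picked as the highest of all those tested.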

How the data were processed

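Per the labels' protocols, total RNA was made into libraries with the TruSeq RNA Library Prep Kit v2, which does not mark strand, for an Illumina HiSeq. The authors deposited whole-number counts per gene, with no normalization. The authors also deposited FPKM, scaled by them to gene length and depth. Per the submitters' processing notes, the build was mm10 and the tools included HISAT2, HTSeq, Trimmomatic and DESeq2, with versions not given in the sources used here.

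Both tables of counts were fitted whole (12 libraries each) with edgeR 4.0.16 in R 4.3.3: TMM factors, filterByExpr, 1 coefficient per group, robust quasi-likelihood F-tests, two-sided, and Benjamini-Hochberg adjustment over 15525 or 15888 genes, with a threshold of 0.05. The interaction subtracts the TNF effect in organoids without the knockdown from that with it. CPM use the TMM-scaled library size. Fitted folds of low genes depend on edgeR's prior count. Pipeline scripts were tested on simulated data. Alternatives were DESeq2 size factors, no filter, the DESeq2 1.42.0 Wald test, only the groups compared, a replicate block, limma 3.58.1 on log2(FPKM + 1), each library left out, and marker scores as covariates in the inner ear. Between replicates, counts differed beyond sampling noise throughout (chi-square per degree of freedom 4.54 to 86.9).

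The members, lists and tests were chosen with earlier results of these data known. In each comparison the members were named, and up to 4 called genes per list with the smallest p, plus Csf1r, Il6st, Lifr and Il1r1; Il6ra, Il15ra, Il2rb, Il1rl1, Osm, Socs3, Pim1, Irak1 and the macrophage markers were named after their values were seen. Coordinates and sequences are RefSeq's on GRCm38.p6, exon overlaps GENCODE vM21's.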

Additional observations from a re-analysis of the deposited data

Results flagged for a closer look

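Among 21 groups of 4 libraries checked, 2 had a library that stood apart by Dixon's criterion, where chance gives about 1 in 20. Lif was highest in replicate 3 of 20 months, at 1.41 CPM. Il1rn was lowest in replicate 1 of 11 months, at 0.0278 CPM, which is 1 count.

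The TNF effect differed with and without the RBM25 knockdown for 2 members. For Il33 the difference was 0.96 on the log2 scale, and for Csf1 it was -1.19 (edgeR adjusted p = 2.41e-07 and 0.0225).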

How the results depend on the processing

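Of 703 recomputed member results, 639 kept direction and side of the threshold, 18 lost their call, 21 gained one and 25 changed sign; the cause was not tested. Counts of members called in the inner ear include Il1rn. At 20 against 3 months the muscle and bone covariate left 0 members called. The ages do not overlap in that score, so fits with it cannot tell age and score apart. At 11 against 3 months members called were 1 with DESeq2, 2 with only the groups compared and 1 with the replicate block. At 20 against 11 months they were 0 with no filter or with the mucosal, muscle and bone or neutrophil and marrow covariate, 3 with DESeq2, 2 with the replicate block and 2 with limma, and 0 to 1 without single libraries. The interaction gave 1 to 2 members without single libraries. The deviations of same-numbered libraries had correlations of -0.345 to 0.371 in the inner ear and -0.116 to 0.292 in organoids. Control and knockdown gave 0.292 for replicate 1 and 0.26 for replicate 3. Crossed, control replicate 1 with knockdown replicate 3 gave -0.26, and control replicate 3 with knockdown replicate 1 gave -0.272. No label says what a shared number means. The replicate block left the organoid counts of members as they were.

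Some members changed sign. At 20 against 3 months Il34 gave -0.06 (mucosal), -0.07 (neutrophil and marrow), and down to -0.11 without single libraries. At 11 against 3 months Il1b gave 0.06 (muscle and bone), 0.07 (brain) and up to 0.11 without single libraries, from -1.38; Il15 gave 0.16 (muscle and bone), Il33 -0.19 (brain) instead of 0.89, and Il34 0.15 (mucosal), 0.0033 (muscle and bone), 0.07 (brain), 0.04 (neutrophil and marrow) and -0.13 to 0.05 without single libraries. At 20 against 11 months Il33 gave -0.03 (block), -0.05 (limma) and -0.16 to 0.36 without single libraries, and Il34 -0.20 (mucosal), -0.12 (neutrophil and marrow) and -0.07 to 0.16. With TNF against control Il34 gave -0.25 to 0.52, and at 20 against 3 months -0.11 to 0.12, without single libraries.

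Over all genes, 20 against 3 months called 831 with the muscle and bone covariate and 2226 without replicate 1 of 20 months, instead of 3525. At 11 against 3 months the 242 became 0 with that covariate and 1031 with DESeq2, at 20 against 11 months the 2448 became 1 with it or the mucosal covariate, and the 1962 of the interaction became 1234 without control replicate 1. Depth limits Il6, Csf2 and organoid Il1rn.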
